A study of Homo sapiens with 191 samples.

Results

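The 10 genes described here encode ETS transcription factors, and their accessibility was read from GM12878, a human B cell line immortalised by Epstein-Barr virus. The members were a fixed list, namely ETS1, ETS2, ELF1, ELF2, ELF4, FLI1, ERG, ETV3, ETV6 and GABPA, out of 20090 protein-coding genes. The rule uses no measured value, but the list was drawn up with earlier results of these data known. Over each gene and 10 kb on each side, 98 of the 50000 accessible regions of the series were centred. Single unstained cells were fixed, permeabilised and transposed, then sorted into 2 plates, from which 96 and 95 libraries are covered. All belong to 1 group of 1 cell line, with no treatment and no second condition. The regions were called by the authors on the pooled cells, so there is 1 list with 1 score per region (-log10 of the q-value), no value per library and no replicate, and how many reads stand behind the pooled list is not known here. Each statement below is therefore a description of that list, with no test.

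ETS factors share a winged helix-turn-helix domain that binds DNA around a GGAA core, and they differ in partners, in flanking sequence and in where they are expressed. ETS1, FLI1, ELF1 and ELF4 are prominent in lymphoid cells and were set as lymphoid members. ETS2, ELF2, ETV3, ETV6 and GABPA are expressed in many tissues and were set as broad members. ERG is known for its role in endothelium and in blood stem cells and was set as the endothelial member. FLI1 is also active in endothelium and ETV6 is needed in blood stem cells, so the classes are a convention. Among markers of the labelled cell type, 6 of 7 B cell genes had a region centred within 1 kb of a transcription start site (TSS), with none at CD22. Of 7 endothelial markers found in the annotation, 2 had one (TIE1 and ESAM), against 0 of 4 T cell and 2 of 4 myeloid genes (CD14 and LYZ).

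Of the 10 genes, 9 had a promoter region, meaning a region centred within 1 kb of an annotated TSS (90.0%, against 57.2% of all protein-coding genes), and ERG had none. The same 9 held at least 1 region over the gene and its flanks, as did 74.7% of all protein-coding genes. A member had a median of 5.5 regions, against 2 for all protein-coding genes, but the counts ran from 0 to 25. Counts grow with the length of the window, so densities are given as well. The median density of all protein-coding genes was 2.64 regions per 100 kb. ETV6 had 25 regions, FLI1 24, ETS1 19 and ELF4 14, and these 4 genes together held most of the 98. ELF2 had 6, ELF1 5, ETS2 2, GABPA 2 and ETV3 1. By density, ELF2 (3.55 per 100 kb), GABPA (3.45), ELF1 (3.34) and ETV3 (2.68) lay near the median of all protein-coding genes, with ETS2 at 5.03. ELF4 (20.97), FLI1 (16.4), ETS1 (12.8) and ETV6 (9.41) lay well above it, and ERG had 0. Of the 98, 21 were promoter regions and 77 lay elsewhere, 68 of them in introns.

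**Figure D1:**
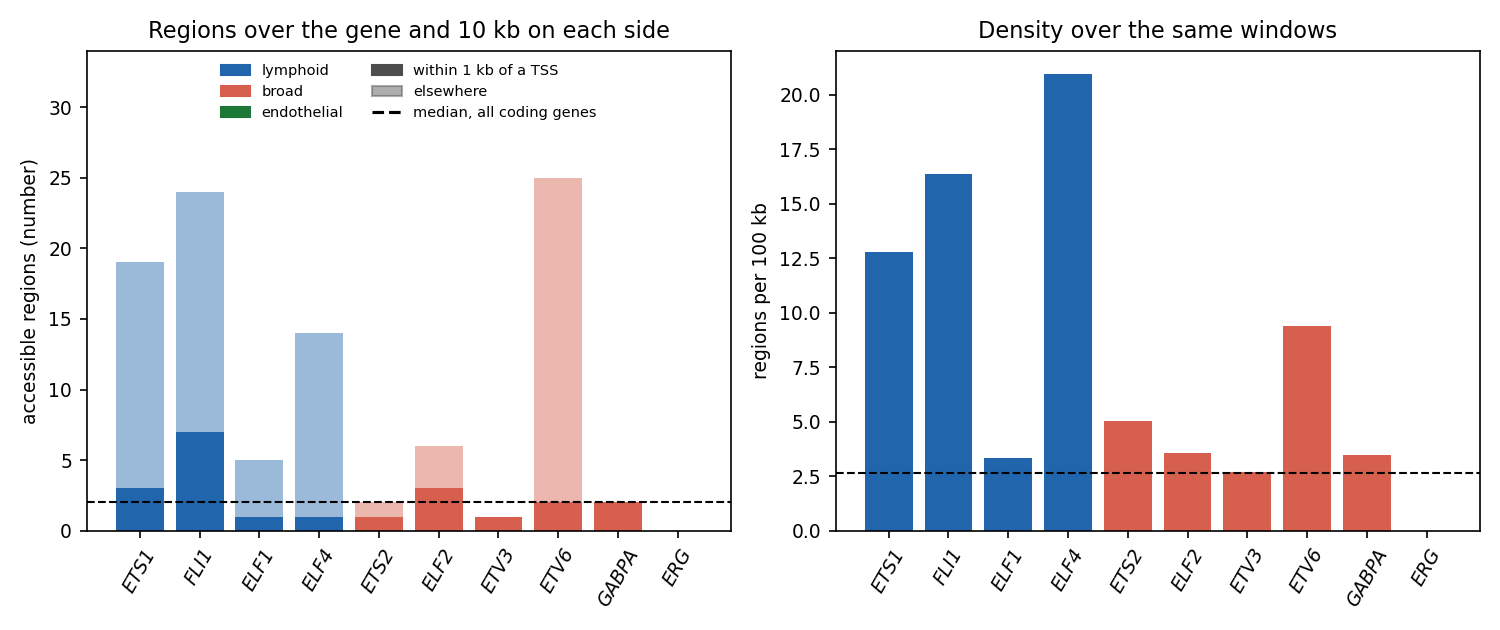
Number of accessible regions over each ETS gene and 10 kb on each side (left, split by distance to a TSS) and the same per 100 kb (right), coloured by class, with the median of all protein-coding genes dashed. ETV6, FLI1, ETS1 and ELF4 stand above the others in number, ELF4 leads in density, and ERG is at 0.

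The scores spread over a wide range within single genes. The list itself ran from 16.0 to 4437.6, with a median of 31.6. Of the 98 regions, 59 lay above that median (60.2%) and 30 reached the upper quartile of 74.9 (30.6%, against 25.1% of all regions). The promoter regions of the members had a median score of 47.4 (range 17.3 to 846), against 64.3 for all promoter regions, and 7 of the 21 were at FLI1. Taking only the strongest promoter region of each of the 9 members, the median was 212, against 129.6 for all genes with a promoter region. This comparison depends on the TSSs used and was made with all annotated TSSs only. With protein-coding transcripts alone FLI1 entered at 49.1 instead of 366.6, and with the 5'-most TSS alone ETS1 had no promoter region. Away from promoters the median was 39.4 (range 16.0 to 920.1), against 25.7 for the other regions of the list. The median GC content was 65.3% at the members' promoter regions and 49.7% elsewhere, against 62.1% and 48.1% over the list.

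**Figure D2:**
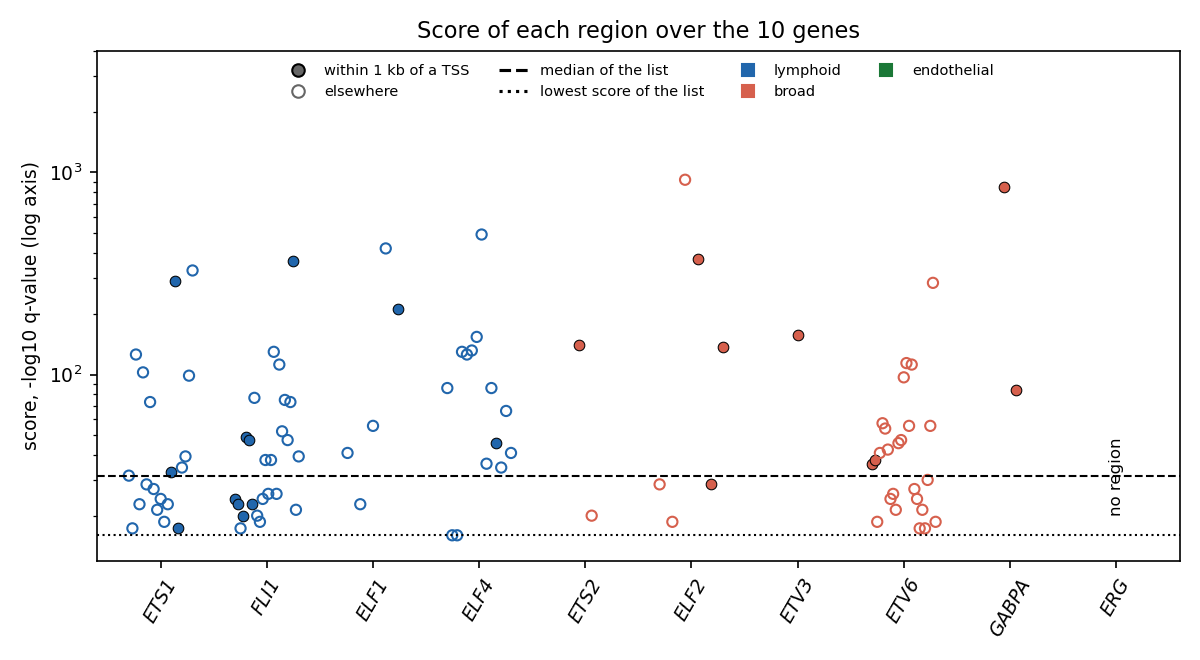
Score (-log10 q-value, log axis) of each of the 98 regions by gene, filled within 1 kb of a TSS and open elsewhere, with the median (31.6) and lowest score (16.0) of the list as lines. In ELF2, ELF4, ELF1, ETS1 and ETV6 the highest point is an open one.

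For 5 of the 9 members with regions the strongest lay more than 1 kb from any TSS. For ELF2 and ELF1 it missed the window by little, at 1178 and 1053 bp. The share of all protein-coding genes whose strongest region lies more than 1 kb from a TSS was not computed. The 5 of 9 therefore has no background beside it. The bases at the centre of the strongest region are printed for ETS1, ELF1, ELF2 and ETV6 and for FLI1, whose strongest region lay at a TSS inside the gene (hg19, plus strand, 5' to 3'). Capitals mark matches to 12 of the 13 motifs described further on, all except the bare GGAA core, which is too frequent to mark.
ETS1 (chromosome 11, 128422952 to 128423072): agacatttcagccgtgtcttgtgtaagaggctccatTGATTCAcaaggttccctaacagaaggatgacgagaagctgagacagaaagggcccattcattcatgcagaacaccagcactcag
FLI1 (chromosome 11, 128627888 to 128628008): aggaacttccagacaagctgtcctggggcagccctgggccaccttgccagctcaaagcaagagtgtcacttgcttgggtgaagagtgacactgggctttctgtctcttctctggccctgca
ELF1 (chromosome 13, 41634463 to 41634583): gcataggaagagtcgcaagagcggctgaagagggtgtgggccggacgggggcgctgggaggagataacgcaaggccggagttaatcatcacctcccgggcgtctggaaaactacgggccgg
ELF2 (chromosome 4, 140004140 to 140004260): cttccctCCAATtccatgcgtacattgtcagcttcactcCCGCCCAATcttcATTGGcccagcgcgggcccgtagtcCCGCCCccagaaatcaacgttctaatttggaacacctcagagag
ETV6 (chromosome 12, 11989385 to 11989505): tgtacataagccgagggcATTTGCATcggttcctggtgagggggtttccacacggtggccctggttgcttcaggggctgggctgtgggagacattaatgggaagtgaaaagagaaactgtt
In these windows ETS1 held an AP-1 match and ETV6 an octamer, while ELF2 held 2 SP/KLF and 3 NFY matches. The windows of FLI1 and ELF1 held none.

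ETS1, a factor of T, B and NK cell development, lies on the minus strand of chromosome 11 at 128328656 to 128457453 and held 19 regions, more than 99.2% of protein-coding genes. It has 8 annotated TSSs, of which 3 had a region within 1 kb. These 3 lie close together inside the gene, and their strongest region (chr11:128392026-128392526), 65177 bp from the 5'-most TSS, had a score of 291 and a GC content of 77.8%. The 3 TSSs at the 5' end of the gene had none, so with the 5'-most TSS alone ETS1 counted as having no promoter region. Its strongest region (chr11:128422762-128423262, score 327, rank 3064 of 50000) lay in the intron between these groups of TSSs, 30807 bp upstream of the nearest one, beside a summit of the same called region with a score of 98.8. A further group in the 3' part of the gene included regions with scores of 125.7, 102.5 and 73.1.

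FLI1, needed for megakaryocytes and active in B cells and endothelium, lies on the plus strand of chromosome 11 at 128556430 to 128683162. It held 24 regions, 7 of them promoter regions, and 7 of its 8 TSSs had one nearby. Around the first TSSs the regions were many, and 8 fell within 10 kb. The promoter regions there were weak, with scores from 20.0 to 49.1. The highest score of the 8, 76.7, lay outside the promoter window. The strongest region (chr11:128627698-128628198, score 366.6) was centred 53 bp upstream of a TSS of a retained-intron transcript in the middle of the gene. With the TSSs of protein-coding transcripts alone, a choice made after the values were seen, this region no longer counted and the strongest promoter region of FLI1 was 49.1. Intronic regions with scores of 129.6, 112.1, 74.9 and 73.1 lay between these points. The weak region upstream of FLI1 (score 24.3) is also within 1 kb of a lncRNA TSS, and the region with a score of 76.7 is within 1 kb of SENCR, an antisense lncRNA.

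ELF1 and ELF4 belong to the same subfamily and differed in arrangement. ELF1, expressed throughout the lymphoid lineage, lies on the minus strand of chromosome 13 at 41506060 to 41635576 and had 5 regions, 3.34 per 100 kb. Its promoter region (score 212) is also within 1 kb of a TSS of WBP4, and the strongest (score 421) followed 1053 bp into the gene as another summit of the same called region. The other 3, with scores of 55.8, 40.9 and 22.8, were spread over the rest of the gene. ELF4, a factor of T and NK cells, lies on the minus strand of chromosome X at 129197930 to 129244691. It had 14 regions over 66.8 kb, 20.97 per 100 kb, a density above that of 98.4% of protein-coding genes and the highest of the 10. Its promoter region was weak (score 45.8), whereas the first intron held the strongest region (score 493) and, farther downstream, a run of 4 regions with scores of 153.6, 131.6, 125.7 and 129.6. Of its 14 regions, 7 reached the upper quartile of the list.

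Among the broad members, GABPA, ETV3 and ETS2 had little beyond the promoter. GABPA, the DNA-binding subunit of GABP and a regulator of many housekeeping and mitochondrial genes, lies on chromosome 21 at 27106881 to 27144771. Its promoter, shared with ATP5PF, held the second strongest region of the set (chr21:27107069-27107569, score 846, rank 863) and a second summit of 83.9. ETV3, a repressor, had a single region at its promoter (chr1:157107990-157108490, score 157.6, GC content 73.9%). ETS2 had a promoter region (chr21:40177429-40177929, score 139.5) and 1 weak region downstream (score 20.0).

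ELF2 and ETV6 had more than 1 site of accessibility. ELF2 (chromosome 4, 139949266 to 140098372, minus strand) has TSSs at its 5' end and again inside the gene, 93023 bp downstream as measured to the region there. The higher scores lay at this inner site, 371 at the TSS and 920.1 at the neighbouring summit (chr4:140003950-140004450, rank 725), the highest of all 98. That summit was centred 1178 bp from the nearest TSS, outside the promoter window. The outer promoter had scores of 137.5 and 28.6, at 886 and 252 bp upstream of the TSS, respectively. ETV6, a repressor needed in blood stem cells, lies on chromosome 12 at 11802608 to 12048311. Its promoter regions had scores of 36.2 and 37.8, the lowest maximum of the 9 genes, while 23 regions lay elsewhere in the gene, all in introns. The strongest (chr12:11989195-11989695, score 284) lay 186.8 kb from the 5'-most TSS, and a group between 109.7 and 116.4 kb from it had scores of 113.99, 112.07 and 96.9.

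**Figure D3:**
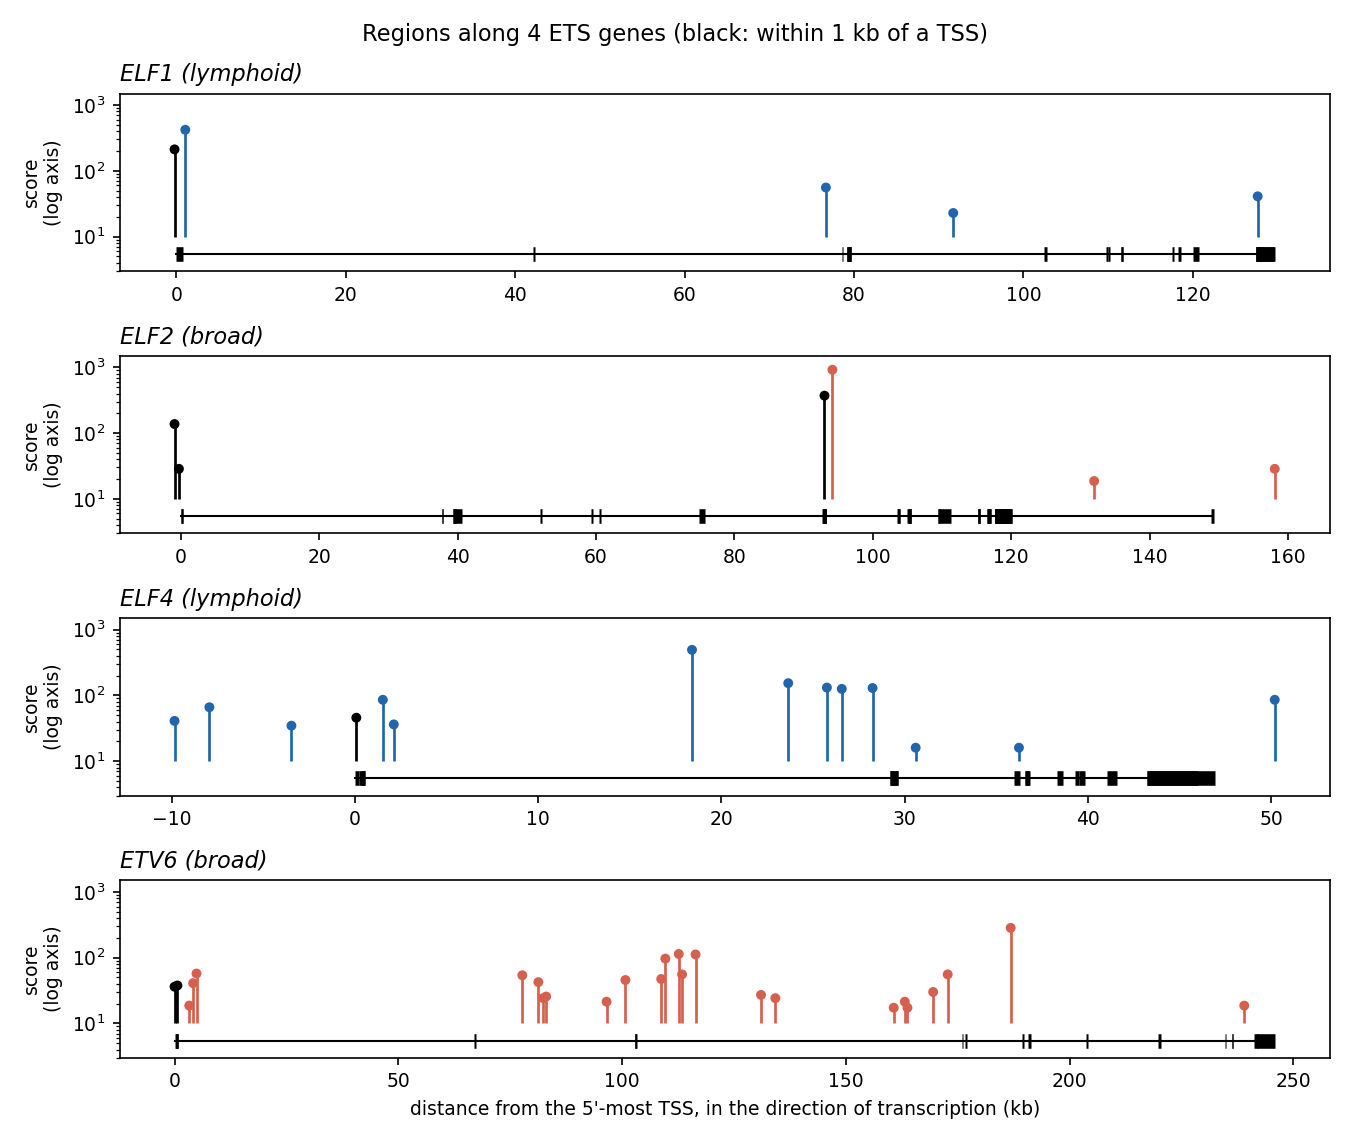
Regions along ELF1, ELF2, ELF4 and ETV6, placed by distance from the 5'-most TSS in the direction of transcription (kb), with line height the score on a log axis and exons as black boxes below. The strongest regions of ELF1 and ELF2 sit just over 1 kb from a TSS, and most regions of ELF4 and ETV6 lie in introns.

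ERG (chromosome 21, 39751949 to 40033704, minus strand) had no region in the gene or within 10 kb, and none with 50 kb on each side. None of its 11 TSSs had one within 1 kb. Of the 914 protein-coding genes with a window at least as long, ERG included, 64 had no region (7.00%), and the median over the 914 was 5. The list stops at a score of 16.0, which 3102 regions share, so the cut may fall among equal scores. This says that no region at ERG entered the list, not that the chromatin was inaccessible.

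By class, all 4 lymphoid members, all 5 broad members and 0 of 1 endothelial member had a promoter region. The lymphoid genes held 62 regions (5 to 24 per gene), or 12.1 per 100 kb, and the broad genes 36 (1 to 25 per gene), or 6.32 per 100 kb, of which ETV6 alone gave 25. The other 4 broad members held 11. The median per gene was 16.5 in the lymphoid and 2 in the broad class, with ranges that overlap. The strongest promoter regions did not separate these classes: they ran from 45.8 to 366.6 (median 251.5) in the lymphoid and from 37.8 to 846 (median 157.6) in the broad class. The order of these medians turned with the TSSs of protein-coding transcripts alone. There the lymphoid median was 130.5, the value at FLI1 being 49.1, and the broad median stayed at 157.6. It turned as well with the 5'-most TSS alone, where ETS1 had no promoter region. The medians were then 45.8 in the lymphoid and 139.5 in the broad class. Of the 66 distinct TSSs of the 10 genes, 36 had a region within 1 kb (54.5%, against 41.6% of all TSSs of protein-coding genes): 14 of 24 in lymphoid, 22 of 31 in broad members and 0 of 11 in ERG.

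ETS1 and FLI1 are neighbours on chromosome 11, as are ETS2 and ERG on chromosome 21, ETS1 being the closest relative of ETS2 and FLI1 that of ERG. The 2 loci differed throughout. From 10 kb before the first gene to 10 kb past the second, the ETS1 and FLI1 locus (374.5 kb) held 48 regions, 12.8 per 100 kb, and the ETS2 and ERG locus (464.9 kb) held 3, or 0.645 per 100 kb. Between the genes, where no other protein-coding gene is annotated, there were 6 regions in 98.98 kb (strongest 165.8) and 1 in 143.4 kb (score 80.3). Of the 6, 1 was a promoter region of FLI1, 524 bp upstream of its TSS (score 24.3), already counted at that gene. The strongest region had a score of 366.6 in the first locus and 139.5 in the second, at the promoter of ETS2.

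**Figure D4:**
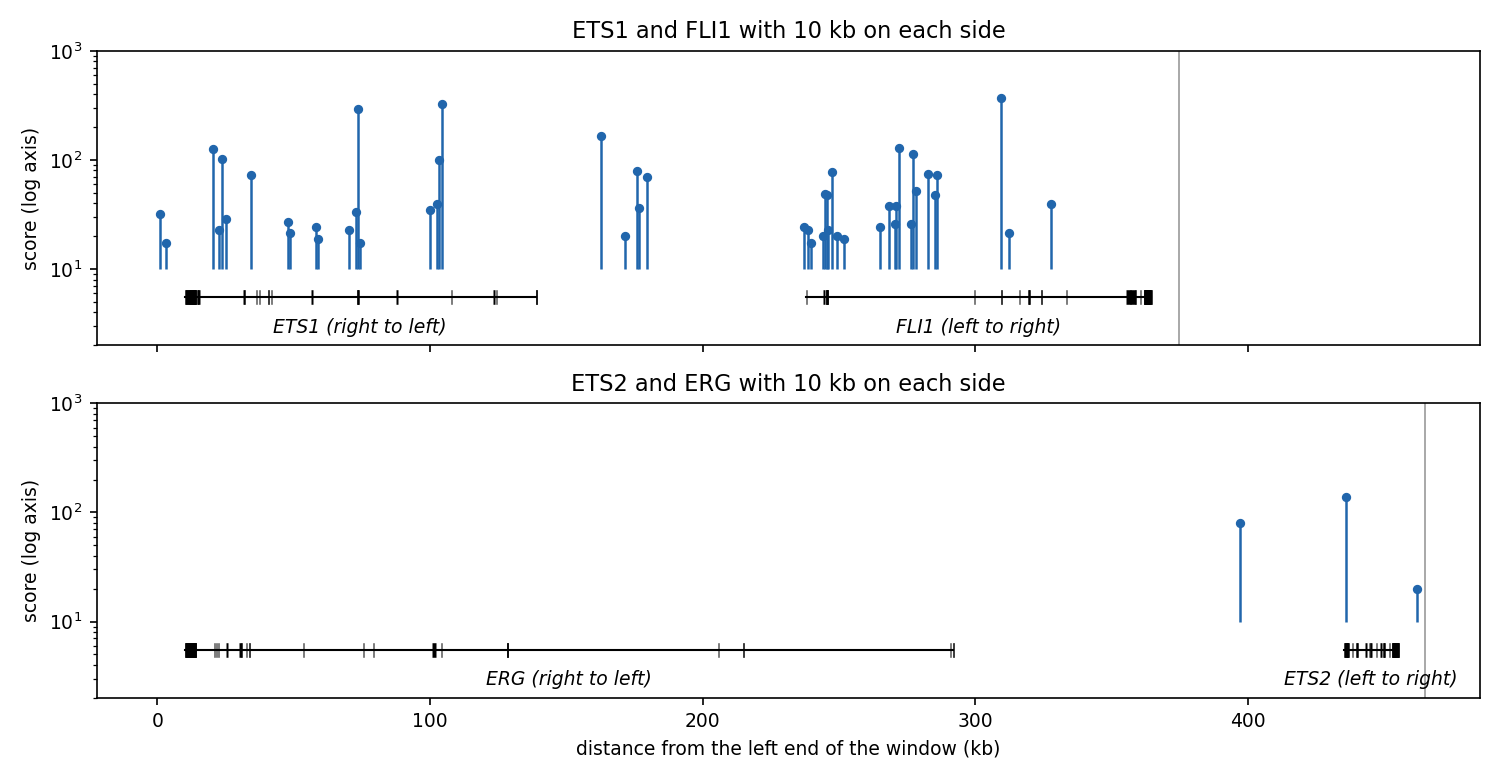
Regions over the ETS1 and FLI1 locus (top) and the ETS2 and ERG locus (bottom) on the same distance axis (kb from the left end, grey line at the right end of each window), with line height the score on a log axis and exons as black boxes below. The first locus holds 48 regions and the second 3, all of them right of ERG.

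The other members of the family were looked at in the same way. Of 18 further ETS genes, 12 had a promoter region (66.7%, against 57.2% of all protein-coding genes), with the strongest at ELK1 (score 799), a serum response factor partner, ETV5 (535), ELK4 (193) and ETV1 (149.5). ELF5, an epithelial factor, ETV3L, ETV7 and FEV were among the 6 without one. SPI1 and SPIB, genes of the PU.1 subfamily that are active in B cells, had weak promoter regions (21.4 and 28.6). Over the gene and its flanks each had 3 regions, the strongest with a score of 39.4 at SPI1 and 131.6 at SPIB. SPIC, of the same subfamily, had no region. In all, these 18 genes held 36 regions, a median of 2 per gene, as over all protein-coding genes. GABPB1 and GABPB2, which encode partners of GABPA, had 1 promoter region each (59.2 and 49.1).

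Motifs were searched on both strands in the 98 regions and in the 49997 regions of the list without N. The full ETS motif (CCGGAAG) was in 6 of the 98 (6.12%, against 8.34% of all regions), and its GGAA core was in all 98, as in 98.7% of the list. At promoter regions the ETS motif was in 3 of 21 (14.3%, against 18.0% of all promoter regions), namely those of ETS2, FLI1 and GABPA. Away from promoters it was in 3 of 77 (3.90%, against 3.64% of the other regions). The region at GABPA, which also held matches to NRF1 (CGCATGCG), YY1 (AAGATGGCG) and PU.1 (GAGGAAGT), is not printed because it lies in and beside an untranslated exon, nor is that of ETS2. The other 4 ETS matches are shown with their surroundings, in capitals.
ELF4 (chromosome X, 129194513 to 129194553): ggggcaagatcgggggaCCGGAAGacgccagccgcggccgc
FLI1 (chromosome 11, 128564238 to 128564278): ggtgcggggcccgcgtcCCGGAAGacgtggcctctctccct
FLI1 (chromosome 11, 128586971 to 128587011): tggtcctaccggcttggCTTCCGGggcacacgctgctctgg
ETV6 (chromosome 12, 11975452 to 11975492): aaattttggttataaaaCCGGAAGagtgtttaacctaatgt

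The octamer (ATTTGCAT), the site of POU2F1 and of the B cell factor POU2F2, was in 9 of the 98 regions (9.18%, against 3.30% of all regions), 8 of them away from promoters (10.4% of 77, against 3.89%). It was found at ETS1, ELF1, ELF4, FLI1 and ETV6. By number of regions searched, 7 of 62 regions at lymphoid members (11.3%) and 2 of 25 at ETV6 (8.00%) held it, and the other 4 broad members, with none, had 11 regions in all, too few to compare. Sites at 7 of these regions are shown here, with the match in capitals.
ETS1 (chromosome 11, 128423194 to 128423234): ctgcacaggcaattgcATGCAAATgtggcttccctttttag
ELF1 (chromosome 13, 41543734 to 41543774): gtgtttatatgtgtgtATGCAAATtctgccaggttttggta
ELF4 (chromosome X, 129218747 to 129218787): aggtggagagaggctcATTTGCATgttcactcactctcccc
FLI1 (chromosome 11, 128595938 to 128595978): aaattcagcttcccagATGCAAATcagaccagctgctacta
FLI1 (chromosome 11, 128646002 to 128646042): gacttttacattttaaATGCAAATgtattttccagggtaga
ETV6 (chromosome 12, 11807621 to 11807661): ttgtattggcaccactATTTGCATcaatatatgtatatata
ETV6 (chromosome 12, 11989387 to 11989427): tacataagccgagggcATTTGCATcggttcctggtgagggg
These included the strongest region of ETS1 and that of ETV6. The PU.1 motif was in 8 regions (8.16%, against 5.14%), 4 of them at FLI1. It was in 4 of the 21 promoter regions (19.0%, against 4.28% of all promoter regions) and in 4 of the 77 others (5.19%, against 5.56%). The IRF motif (GAAANNGAA) was in 19 (19.4%, against 15.2%), the RUNX motif (TGTGGT) in 33 (33.7%, against 32.8%), and the AP-1 motif (TGANTCA) in 11 (11.2%, against 16.9%), 5 of them at ETS1. AP-1 was in 3 of the 21 promoter regions (14.3%, against 9.01%) and in 8 of the 77 others (10.4%, against 20.8%). Over all regions, promoter elements were near the share of the list, with SP/KLF (GGGCGG) in 29 (29.6%, against 34.0%) and NFY (CCAAT) in 42 (42.9%, against 45.4%). Split by place, NFY was in 12 of the 21 promoter regions (57.1%, against 42.8%) and in 30 of the 77 others (39.0%, against 46.7%). SP/KLF was near the list in both (71.4% against 68.9%, and 18.2% against 17.0%). The PU.1 motif contains the GGAA core, as do the ETS motif and the NF-kB motif (GGGANTTCC) on the opposite strand, so these matches can overlap. A match is a description of the letters and not a bound site.

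**Figure D5:**
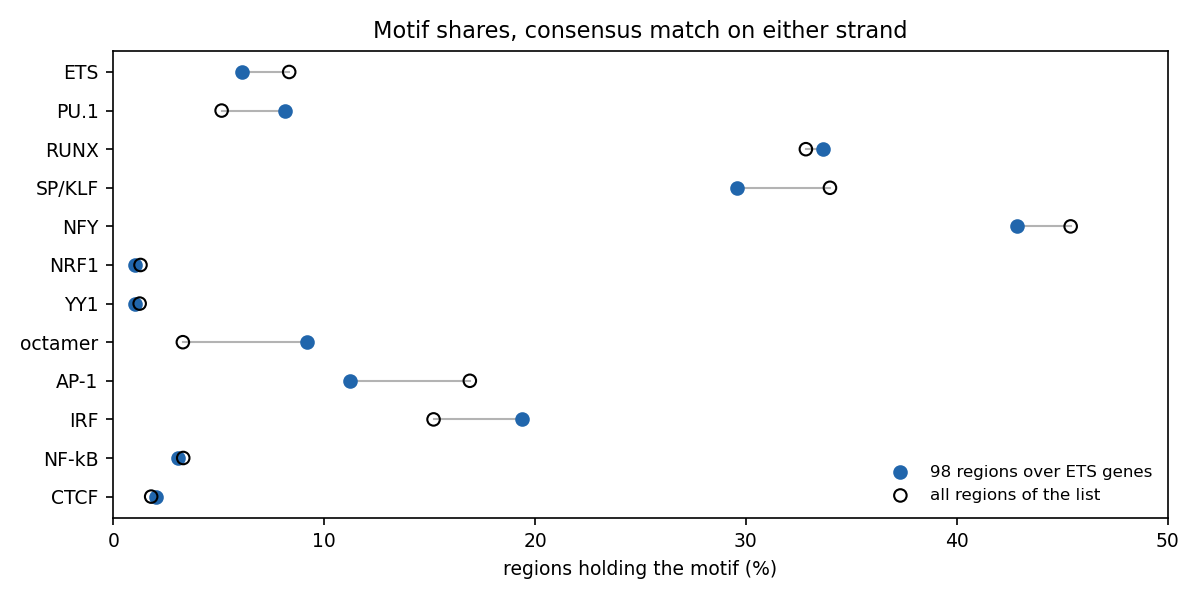
Share of regions holding each of 12 motifs (%), for the 98 regions over ETS genes (filled) and for all regions of the list (open). The octamer differs most in ratio, at 9.18% against 3.30%, and most other pairs lie close together.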

How the data were processed

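Per the study's methods and the submitters' processing notes, the authors mapped read pairs to hg19 with Bowtie2 2.1.0, removed duplicates with Picard 1.79 along with low-quality and mitochondrial reads, called summits with MACS2 (version not given in the sources used here) on pooled cells, and kept the 50000 of lowest q-value as windows of 501 bp. The deposited score of each region is -log10 of the q-value. It depends on depth and on the pooled cells, and ranks regions within this list only. Filtering of reads that map to several places can hide accessibility in duplicated sequence.

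Regions were placed by their centre on genes of GENCODE 44 mapped to GRCh37, whose chromosome lengths hold all regions. Coordinates are 1-based. A promoter region lay within 1 kb of any annotated TSS, and the gene window added 10 kb on each side. Summits of 1 called region were counted separately. Percentiles give the share of protein-coding genes with fewer regions. No test was made, since 1 pooled list has no replicate. The members, classes, 13 motifs and other lists were chosen with earlier results of these data known. All 10 members were named. A B cell marker and some stretches of sequence are not reported here. Of the other ETS genes, the rule named the 4 with the strongest promoter region and 4 without one in alphabetical order. SPI1, SPIB and SPIC were added after their values were seen. The counting was tested on simulated data with 2000 windows, and every planted count was recovered. Python 3.11.15, numpy 2.4.6, pandas 2.3.3 and matplotlib 3.10.9 were used.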

Additional observations from a re-analysis of the deposited data

How the results depend on the processing

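The number of members with a promoter region was 8 or 9 under every alternative run (a window of 500 bp or 2.5 kb, the 5'-most TSS, protein-coding transcripts, the stronger part of the list, and the list without its lowest score), and 8 arose with the 5'-most TSS, where ETS1 lost its call. ERG had no region in any of them. Among other ETS genes the count was 8 to 12. The share of all protein-coding genes was computed only for the main setting (57.2%). The counts under the alternatives therefore have no background share beside them. The median score of the members' promoter regions rose from 47.4 to 94.3 with a window of 500 bp, and was 212 with the strongest region of each member. With the 25237 stronger regions alone, the members held 60 regions instead of 98, of which 39 were at lymphoid and 21 at broad genes, as fewer regions enter. Moving FLI1 to the endothelial class gave that class 1 gene with a promoter region and 24 regions and left 38 at lymphoid genes. Moving ETV6 to the lymphoid class left 11 regions at broad genes. The median of the strongest promoter regions of the lymphoid members fell from 251.5 to 130.5 with protein-coding transcripts and to 45.8 with the 5'-most TSS, where ETS1 had none. Both comparisons were added after the values were seen. The other alternatives (no flank, 50 kb, any overlap, summits joined) kept the total and the class sums within 1.5 times their values, but not every gene's own count: with 50 kb ETV3 went from 1 to 6 and ELF2 from 6 to 11, without a flank ELF2 had 3 and ETS2 1, and with summits joined GABPA had 1. No paired analysis was possible because there is 1 group and 1 pooled list. The reads behind the list are not known, so a gene without a region is one at or below the limit of the list.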

Other observations

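The NF-kB motif was in 3 of the 98 regions (3.06%, against 3.32% of all regions), 1 at ETS1 and 2 at ETV6. The CTCF motif (AGGGGGCGC) was in 2 (2.04%, against 1.80%), both at ELF4, 1 of them at its promoter. Both shares are close to those of the list, and the matches are too few to compare genes. Of the 98 regions, 53 carry a letter for a summit of a called region with several summits, and the 98 came from 76 called regions.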
